A study of Mus musculus with 4 samples.

Results

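The genes that load and display peptides on MHC class I and class II molecules were followed in Leydig cells, the androgen-producing cells between the tubules of the testis. Members were taken by symbol after each Ensembl ID was matched to the mouse annotation: 5 class II genes (H2-Aa, H2-Ab1, H2-Eb1, H2-DMa and Cd74) and 5 class I genes (H2-K1, H2-D1, B2m, Tap1 and Tap2), 10 of 27357 genes in all. RNA was sequenced from the Leydig cells of male mice that were wild type (WT, 2 libraries) or carried a knockout of C2orf74 (KO, 2 libraries). All were fed a high-fat diet for 12 weeks from 8 weeks of age, so no group on another diet enters. The labels give the genotype alone. Strain and the cells that lack the gene are not stated there, nor is it said that each library is its own animal, so the p-values rest on a spread between libraries that could be technical.

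Class II molecules are pairs of an alpha and a beta chain that present peptides from endocytosed protein to CD4+ T cells. They are made mainly by dendritic cells, B cells and macrophages, and their genes depend on the transactivator Ciita, which acts through conserved X and Y boxes of the promoter. Class I molecules are displayed by nearly all nucleated cells, pair a heavy chain with the light chain B2m, and receive peptides that the transporter Tap1-Tap2 brings into the endoplasmic reticulum. In the testis, macrophages lie in close contact with Leydig cells in the interstitium and are the main resident immune cells there.

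Of the members, 8 lie on chromosome 17 (GRCm38), from H2-K1 (33996017 to 34000347, minus strand) past H2-DMa (34119541 to 34139101), Tap1 (34187553 to 34197225), Tap2 (34203527 to 34216321), H2-Ab1 (34257689 to 34269419), H2-Aa (34282744 to 34287823, minus strand) and H2-Eb1 (34305867 to 34316674) to H2-D1 (35262730 to 35267499). B2m lies on chromosome 2 (122147686 to 122153083). These are whole gene spans, exons and introns included. RefSeq promoters on GRCm38.p6, from 250 bases before to 50 after the gene start, were matched for 7 of the 10 members. Promoter stretches are shown because the class II genes, B2m, H2-K1 and H2-D1 were high in the same libraries, as described below. Capitals mark 2 motifs on the strand of the gene: TGANG, the core of the X2 box, and ATTGG, the inverted CCAAT of the Y box, with 19 to 21 bases between them. The spacing was chosen after the sequences had been read. H2-DMb1, which encodes the beta chain that pairs with the H2-DMa product, is added.

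H2-Aa, chr17:34287852-34287912, minus strand: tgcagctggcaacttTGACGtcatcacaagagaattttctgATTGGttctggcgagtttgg
H2-Eb1, chr17:34305769-34305827, plus strand: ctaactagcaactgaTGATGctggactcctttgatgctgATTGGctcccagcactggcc
H2-DMb1, chr17:34153090-34153149, plus strand: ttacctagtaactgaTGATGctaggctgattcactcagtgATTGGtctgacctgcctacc
H2-K1, chr17:34000344-34000403, minus strand: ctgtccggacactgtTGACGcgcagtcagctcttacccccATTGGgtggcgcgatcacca
H2-D1, chr17:35262978-35263037, plus strand: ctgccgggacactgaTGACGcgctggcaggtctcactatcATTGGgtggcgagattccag
B2m, chr2:122147594-122147653, plus strand: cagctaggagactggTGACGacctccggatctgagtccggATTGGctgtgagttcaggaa

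The motif pair was found in 5 members, H2-Aa, H2-Eb1, H2-K1, H2-D1 and B2m, and not in the windows listed for H2-DMa and Tap1. Of 32817 promoters of the same length, 0.527% held the pair on the strand of the gene and 0.948% on either strand. ATTGG alone was in 22.1% of them on the strand of the gene and 37.4% on either strand. The motifs do not overlap each other in these matches. A match says only that these letters stand there.

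Values are RPKM, in which reads are divided by gene length and by the reads of the library, in libraries of 13847807 and 15817092 reads for WT replicates 1 and 2, and 15694389 and 19764003 for KO replicates 1 and 2. Against the Leydig cell label, Cyp11a1, the side-chain cleavage enzyme, stood at 299.7 to 415 RPKM and Hsd3b1, a steroid dehydrogenase, at 261 to 449. Insl3, a Leydig cell hormone, had 164 and 133 in WT and 73.02 and 81.5 in KO (limma adjusted p = 0.15), and Cyp17a1, which makes androgen precursors, was low at 0.90 to 2.12. The summed macrophage list (21 genes) stood at 1514 and 1157.5 RPKM in the WT libraries and 799.65 and 1255.5 in the KO libraries. Germ cell genes summed to 2.64 and 2.10 RPKM in WT and 3.83 and 3.82 in KO. The Sertoli markers Sox9 and Amh stood at or below 1.01, while Gata1 of the same list stood at 1.76 to 4.41, Amhr2 at 39.7 to 54.8 and Clu at 627 to 797. The targeted gene, annotated as 1700093K21Rik, had 4 reads in WT replicate 2 and 0 in the other libraries, where 0 reads allow up to 0.108 RPKM in WT replicate 1 and 0.0952 and 0.0756 in the KO libraries. It could not check the labels at this depth. Intervals and floors cover counting error only.

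Class II transcripts were present at low levels, and they varied between libraries of the same genotype more than between genotypes. Cd74, the invariant chain that escorts class II molecules and blocks their groove, was the highest, at 5.38 and 1.93 RPKM in WT replicates 1 and 2 and 1.94 and 8.94 in KO replicates 1 and 2. Replicate 1 was the high library in WT and replicate 2 the high library in KO, so the genotypes overlapped. These values rest on 105, 43, 43 and 249 reads. Cd74 lies on chromosome 18 (60803848 to 60812652), apart from the other class II genes.

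H2-Aa, the alpha chain of the I-A molecule, had 1.50 and 0.371 RPKM in WT and 0.510 and 2.32 in KO (39, 11, 15 and 86 reads). Its partner H2-Ab1, the I-A beta chain, had 2.29 and 0.850 RPKM in WT and 0.934 and 2.78 in KO (52, 22, 24 and 90 reads). Both chains were thus high in WT replicate 1 and KO replicate 2 and low in the other libraries, and the genotypes overlapped. H2-Eb1, the beta chain of the I-E molecule, had 1.34 and 0.534 RPKM in WT and 1.08 and 2.35 in KO (22, 10, 20 and 55 reads). H2-DMa, the alpha chain of the molecule that exchanges the Cd74 fragment for peptide, had 1.94 and 0.655 in WT and 1.16 and 1.45 in KO (44, 17, 30 and 47 reads). WT replicate 2 was the lowest library for all 5 class II members. KO replicate 2 was the highest for 4 of them, with WT replicate 1 highest for H2-DMa.

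**Figure D1:**
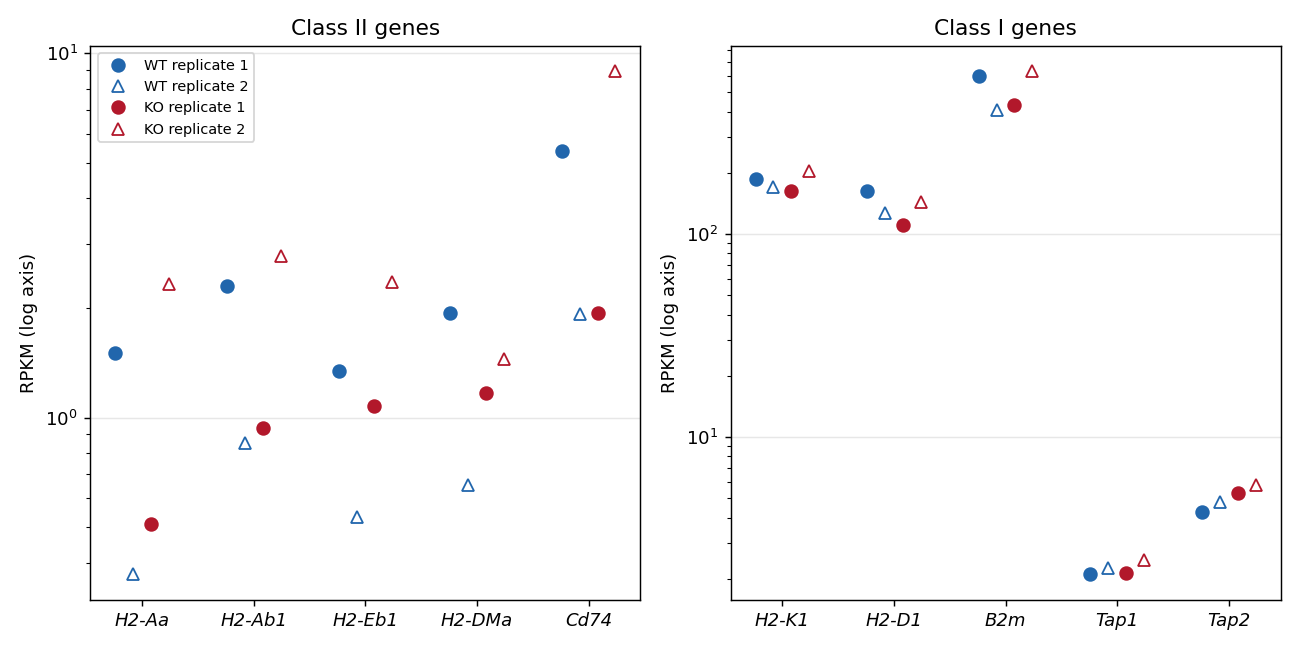
RPKM of the 5 class II genes (left) and the 5 class I genes (right) in each library on log axes, with WT in blue and KO in red, filled circles for replicate 1 and open triangles for replicate 2. WT replicate 1 and KO replicate 2 lie above the other libraries for 8 of the 10 genes, and Tap1 and Tap2 do not share that order.

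The read numbers allow the gap between libraries to be set against counting error. For H2-Aa, WT replicate 1 stood 4.05 times above WT replicate 2 (95% exact interval 2.03 to 8.77), and KO replicate 2 stood 4.55 times above KO replicate 1 (2.61 to 8.49). For Cd74 the ratios were 2.79 (1.94 to 4.08) and 4.60 (3.32 to 6.51). For H2-Ab1 they were 2.70 (1.61 to 4.67) and 2.98 (1.88 to 4.89), and for H2-Eb1 2.51 (1.14 to 5.94) and 2.18 (1.29 to 3.85). H2-DMa differed in WT (2.96, 1.66 to 5.52), while its KO ratio of 1.24 had an interval of 0.771 to 2.04. Counting error alone thus did not span equality for these class II genes in either genotype, except H2-DMa in KO. These ratios compare libraries, not genotypes. For the class II members and H2-K1 the reads are the smallest whole numbers that stand in the ratio of the values, so the true reads may be a multiple and the intervals narrower.

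The class I chains that form the surface molecule were far more abundant, and they too were high in WT replicate 1 and KO replicate 2, with smaller gaps. KO replicate 1 was lowest for H2-K1 and H2-D1 and WT replicate 2 for B2m, and H2-D1 was highest in WT replicate 1. B2m, the light chain, had 599.8 and 409 RPKM in WT and 429 and 633 in KO. The heavy chain gene H2-K1 had 186.0 and 170.0 RPKM in WT and 162 and 203 in KO. The heavy chain gene H2-D1 had 162 and 126 RPKM in WT and 110.3 and 144 in KO. In each of these genes WT replicate 1 and KO replicate 2 lay above the other libraries, and the genotypes overlapped. For B2m the ratio was 1.47 (95% exact interval 1.41 to 1.52) between the WT libraries and 1.48 (1.43 to 1.52) between the KO libraries. For H2-K1 it was 1.09 (1.06 to 1.13) and 1.25 (1.21 to 1.29), and for H2-D1 1.28 (1.23 to 1.33) and 1.31 (1.26 to 1.36).

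The peptide transporter did not share that pattern. Tap1 had 2.10 and 2.25 RPKM in WT and 2.14 and 2.47 in KO. Tap2 had 4.24 and 4.75 RPKM in WT and 5.27 and 5.75 in KO. Tap2 was the only member whose KO libraries both lay above both WT libraries, and Tap1 overlapped. For Tap1 the ratio of WT replicate 1 to WT replicate 2 was 0.931 (95% exact interval 0.751 to 1.15), and for Tap2 it was 0.893 (0.746 to 1.07).

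Levels per length could be compared within a library. B2m stood at 1.73 and 1.38 times the sum of H2-K1 and H2-D1 in WT and at 1.57 and 1.82 times in KO. H2-K1 stood at 1.15 and 1.34 times H2-D1 in WT and at 1.47 and 1.41 times in KO. Heavy chain genes resemble each other, and this makes their values uncertain: of the distinct 50-base windows in the annotated transcripts, 9.63% for H2-K1 and 12.8% for H2-D1 also occur in transcripts of other genes, H2-Q10 and H2-Q1 first among them. For H2-Ab1, H2-Eb1, Cd74 and B2m no window was shared. H2-DMa shared 8.43% of its windows with Brd2, Tap2 11.6% with other genes, Tap1 3.33% and H2-Aa 0.514%. Cd74 stood at 2.08 to 3.21 times H2-Ab1, and H2-Ab1 at 1.20 to 2.29 times H2-Aa, over the 4 libraries.

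No member passed the test of KO against WT, and the genotypes overlapped in all but Tap2. Differences were taken on log2(RPKM + 1), a scale that understates the change of low genes, with limma over the 12391 genes that reached 1 RPKM in 2 or more libraries. All 10 members passed that filter. The class II genes H2-Aa and H2-Ab1 did so only through WT replicate 1 and KO replicate 2, 1 library of each genotype. At an FDR of 0.05, 0 of the 10 members were called, against a background of 0% of tested genes higher and 0% lower. At an unadjusted p under 0.05 the count was 0 of 10 members, against 11.7% of all tested genes (1455). It was 0 of 10 with voom on recovered reads, against 1506 of 12388 genes. It was 1 of 10 (Tap2) with quantile normalization, against 1411 of 12391 genes, and with trimmed-mean rescaling, against 1427 of 12391. The genotypes did not overlap in 1 of 10 members, against 44.7% of all tested genes. In that member KO was higher, as in 19.7% of all tested genes, and in 0 members were both KO libraries lower, against 25% of all tested genes.

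Tap2 had the smallest p, with a log2 difference of 0.25 ± 0.10 (SE, n = 2 and 2, limma adjusted p = 0.43). H2-Eb1 had the largest difference of the members, 0.48 ± 0.32 (limma adjusted p = 0.62), with both KO libraries above 1 WT library. Cd74 differed by 0.32 ± 0.66, H2-Aa by 0.27 ± 0.47 and H2-Ab1 by 0.13 ± 0.42. The remaining differences were 0.06 ± 0.30 for H2-DMa, 0.07 ± 0.27 for B2m, 0.06 ± 0.12 for Tap1, 0.03 ± 0.14 for H2-K1 and -0.18 ± 0.18 for H2-D1. The standard error exceeded the size of the difference in 8 of these 10 members. A p that misses the threshold does not show that the genotypes are alike.

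**Figure D2:**
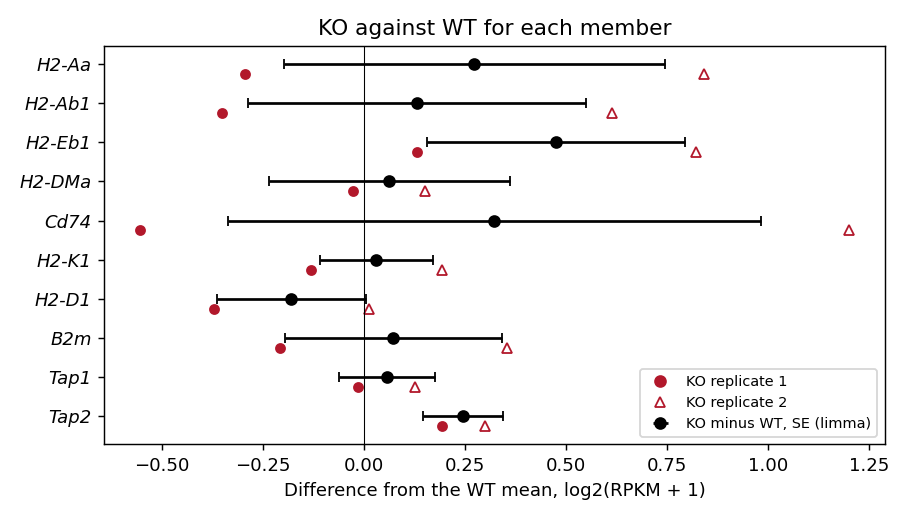
Difference between KO and WT for each member on log2(RPKM + 1), as the limma estimate with its SE (black), and each KO library against the WT mean (red, filled circle for replicate 1, open triangle for replicate 2). For Cd74 the KO libraries stand at -0.55 and 1.20, on either side of 0, and for Tap2 both stand above 0.

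The direction of the class II differences rested on single libraries. The median over the 5 class II members was 0.27, with a replicate SD of 0.70, beside -0.02 over all tested genes. It became -0.24 without WT replicate 2 and -0.29 without KO replicate 2, and 0.71 without WT replicate 1 and 0.82 without KO replicate 1. The class I median was 0.06 with a replicate SD of 0.17. It was -0.03 without WT replicate 2, -0.13 without KO replicate 2, 0.10 without WT replicate 1 and 0.19 without KO replicate 1.

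Set side by side per library, class II varied more than class I, and both were higher in WT replicate 1 and KO replicate 2 than in the other libraries. Centred on the WT mean, the mean log2(RPKM + 1) of the class II genes stood at 0.43 and -0.43 in WT and -0.22 and 0.73 in KO. That of the class I genes stood at 0.08 and -0.08 in WT and -0.11 and 0.20 in KO. Class II minus class I was 0.34 and -0.34 in the WT libraries and -0.11 and 0.53 in the KO libraries. The KO mean of this difference was 0.21 above WT, within its replicate SD of 0.47, and an exact 2-sided permutation test of 2 libraries against 2 cannot go below p = 0.333. Within class I, the mean of H2-K1, H2-D1 and B2m stood at 0.17, -0.17, -0.24 and 0.19 in WT replicates 1 and 2 and KO replicates 1 and 2, while that of the Tap genes stood at -0.05, 0.05, 0.09 and 0.21. In summed RPKM, class II reached 12.5 and 4.34 in WT and 5.63 and 17.8 in KO, or 1.31%, 0.609%, 0.794% and 1.80% of the class I sum.

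The arrangement of libraries was read from the members themselves, so its counts describe them and test nothing. WT replicate 1 and KO replicate 2 both lay above the other libraries in 8 of 10 members, all 5 class II genes and 3 class I genes, against 16.5% of all tested genes. The median gap between WT replicates 1 and 2 was 0.83 over the class II members and 0.13 over the class I members, on log2(RPKM + 1). Between KO replicates 2 and 1 it was 0.97 and 0.32. Over all tested genes the median absolute gap was 0.10 in WT and 0.14 in KO. Both gaps were at least 0.3 in 4 class II and 2 class I members and in 1.88% of all tested genes, a size chosen after the values were seen, from which nothing is read. Between H2-K1 and H2-D1 on chromosome 17 start 41 other tested genes, not counting H2 genes and the genes of any list described here. WT replicate 1 and KO replicate 2 both lay above the other libraries in 1 of the 41. Aif1 of the macrophage list also starts there and was left out of the 41. It had that order too, at 1.51 and 0.619 RPKM in WT and 0.665 and 1.45 in KO.

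**Figure D3:**
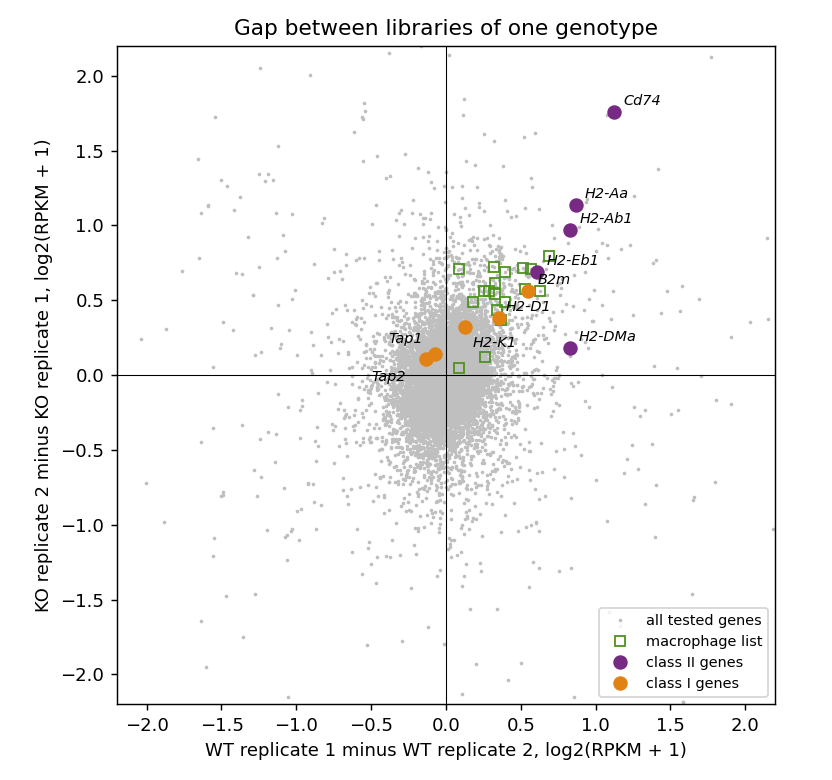
Gap between WT replicates 1 and 2 (x axis) and between KO replicates 2 and 1 (y axis), both on log2(RPKM + 1), for all tested genes (grey), macrophage genes (green squares), class II genes (purple) and class I genes (orange), with 19 genes beyond the axes. Cd74 lies farthest out among the members, and Tap1 and Tap2 lie left of the vertical line.

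Markers of the cells that carry class II molecules differed between the same libraries. In the macrophage list 18 of 21 genes were tested. In all 18, WT replicate 1 was above 2 and KO replicate 2 above 1, against 28.3% of all tested genes. Aif1 passed the filter on low values only through WT replicate 1 and KO replicate 2, which fixed its order. Of the untested genes only Cd163 did not have that order, at 0.926 and 0.533 RPKM in WT and 0.828 and 0.797 in KO. By the stricter order counted for the members, WT replicate 1 and KO replicate 2 both lay above the other libraries in 14 of 18. The share of all tested genes for that order was 16.5%. Over the list, 2 tested genes were higher and 16 lower on average in KO, 0 past an FDR of 0.05 (median -0.29). Of all 12391 tested genes, 5729 were higher and 6662 lower. Lyz2, the macrophage lysozyme, had 970.3 and 736 RPKM in WT and 504 and 811 in KO. C1qa, a chain of complement C1q, had 97.9 and 65.8 in WT and 47.1 and 77.5 in KO. Cd68, a lysosomal glycoprotein, had 133 and 105 RPKM in WT and 66.8 and 97.5 in KO. Both KO libraries were below both WT libraries for Cd68, while the genotypes overlapped for Lyz2 and C1qa. Of the list only Cd14, the lipopolysaccharide co-receptor, had an unadjusted p under 0.05 (limma adjusted p = 0.32). The lists diverged in which library was lowest: KO replicate 1 for 17 of 21 macrophage genes, and WT replicate 2 for all 5 class II members. They also diverged in which was highest: WT replicate 1 for 18 of 21 macrophage genes, and KO replicate 2 for 4 of 5 class II members. The summed class II level was 0.822% and 0.375% of the summed macrophage level in WT, and 0.704% and 1.42% in KO. In bulk RNA, fewer cells of a type and less RNA per cell cannot be told apart.

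Other antigen-presenting and lymphoid cells left fewer reads. The dendritic cell list of 10 genes summed to 7.44 and 5.81 RPKM in WT and 4.52 and 5.88 in KO, most of it Itgax, an integrin that macrophages share, at 2.79 to 5.38. Its markers Flt3, Xcr1, Clec9a, Siglech and Cd209a stayed at or below 0.128 RPKM in every library, with Cd209a at 0 in 3 libraries. Of the same list, Zbtb46 stood higher, at 1.26 and 1.08 RPKM in WT and 0.959 and 0.821 in KO. Ccr7 had 0.548 and 0.128 in WT and 0.419 and 0.153 in KO. The 7 genes of the B cell list summed to 3.63 and 1.88 RPKM in WT and 1.54 and 3.23 in KO, high in the same libraries as class II. Most of that was Blnk, an adaptor also found in macrophages, at 1.29 to 2.40. Cd79a, the B cell receptor chain, had 0.0496, 0.130, 0.0875 and 0.660 RPKM (1, 3, 2 and 19 reads). Cd22 had 0.401 and 0.188 RPKM in WT and 0.101 and 0.381 in KO (28, 15, 8 and 38 reads). Cd79b had 11, 1, 0 and 4 reads. Cd22 and Cd79b were thus high in the same libraries as class II, while Cd79a and Pax5 were lower in WT replicate 1 than in WT replicate 2. Of the T and NK cell list, 10 of 11 genes were measured, summing to 2.34 and 1.69 RPKM in WT and 2.20 and 5.81 in KO. The highest on average was Il7r, at 0.743 and 0.808 RPKM in WT and 1.13 and 2.11 in KO (limma adjusted p = 0.44). Next came Cd4, at 1.24 and 0.517 in WT and 0.585 and 1.54 in KO, high in the same libraries as class II. Trac, the T cell receptor alpha constant region, was listed at 0 in both WT libraries and stood at 0.204 and 0.703 in KO, which is 3 and 13 reads, and Nkg7 had 11 reads in KO replicate 2 and at most 2 elsewhere. Cd3d, Cd3e and Cd3g stayed at or below 0.201 RPKM. The part of these cells in the class II values was not tested.

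**Figure D4:**
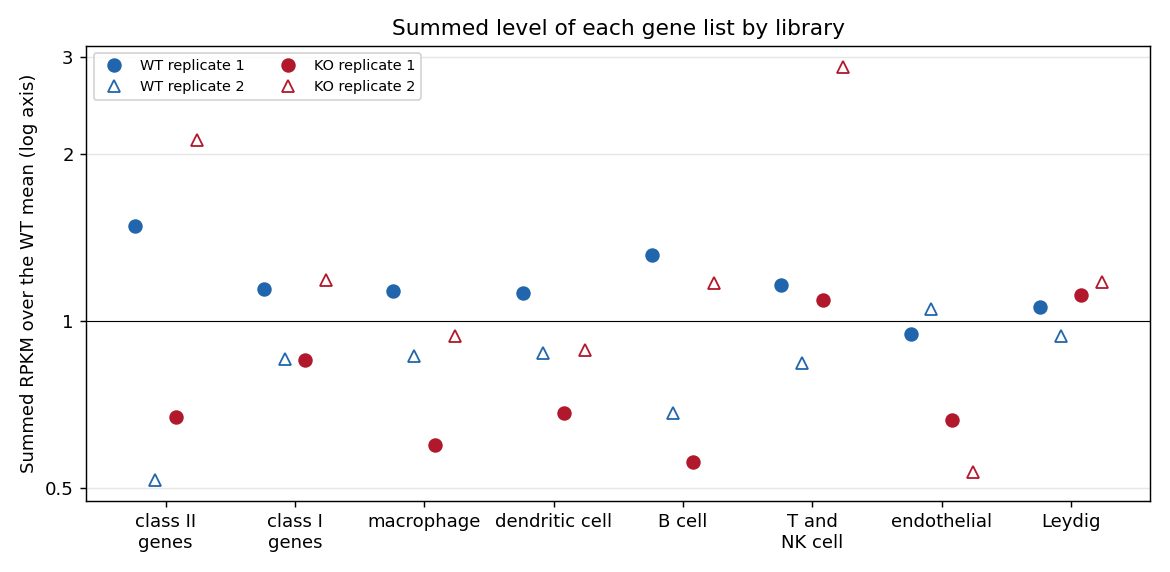
Summed RPKM of the class II and class I genes and of 6 marker lists in each library, divided by the mean of the WT libraries, on a log axis, with WT in blue and KO in red, filled circles for replicate 1 and open triangles for replicate 2. The class II sum stands at 1.48, 0.517, 0.671 and 2.12 of the WT mean, the macrophage sum at 1.13, 0.867, 0.599 and 0.940, and the Leydig sum at 0.940 to 1.18.

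Endothelial markers had both WT libraries above both KO libraries, at a summed 30.4 and 33.6 RPKM in WT and 21.2 and 17.1 in KO. Cldn5, a junction gene, had 2.40 and 3.40 RPKM in WT and 0.225 and 0.930 in KO (limma adjusted p = 0.23). All 4 tested endothelial genes were lower on average in KO, 3 at an unadjusted p under 0.05 and 0 past an FDR of 0.05. Of all 12391 tested genes, 6662 were lower on average in KO, and 11.7% had a limma unadjusted p under 0.05 in either direction. The part of endothelial cells in the class I values was not tested. The summed Leydig cell list stood at 1635 and 1449 RPKM in WT and 1723 and 1814 in KO.

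The other genes of the class II route were described from a list of 12 symbols, of which 8 were measured and 4 tested. None passed an FDR of 0.05, and the smallest limma adjusted p was 0.50. On log2(RPKM + 1) all 4 were lower on average in KO (median difference -0.21), as were 6662 of all 12391 tested genes. For H2-DMb1 that difference was -0.02 ± 0.31, and its mean RPKM was 2.16 in WT and 2.23 in KO, the other direction. H2-DMb1, the partner of H2-DMa, had 2.48 and 1.83 RPKM in WT and 1.29 and 3.17 in KO, high in the same libraries as the class II members. Ctss, the protease that trims Cd74 down to the groove fragment, had 152 and 120.1 RPKM in WT and 80.0 and 144 in KO. KO replicate 1 was its lowest library, as for the macrophage markers. The lysosomal protease Lgmn had 137 and 119.8 in WT and 107 and 113 in KO, and the thiol reductase Ifi30 42.4 and 35.9 in WT and 33.8 and 33.9 in KO. H2-DMb2 had 2 or 3 reads in each library. H2-Ob, a chain of the H2-O molecule that restrains H2-DM, was listed at 0 in WT replicate 2 and KO replicate 2, with at most 0.0458 RPKM elsewhere. H2-Oa and H2-Ea-ps were not analysed here.

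Ciita, the master transactivator of class II genes, was near the floor, with 5, 4, 6 and 4 reads in WT replicates 1 and 2 and KO replicates 1 and 2. The 95% exact Poisson intervals reached from 1.09 to 13.1 reads, and all overlapped. Here too the reads are the smallest whole numbers that stand in the ratio of the values, so they may be a multiple of these. Of the 7 tested regulators that bind the X and Y boxes, 3 were higher and 4 lower on average in KO, and 0 passed. Nfya, a subunit of the factor that binds the Y box, had 13.7 and 13.2 RPKM in WT and 11.8 and 12.9 in KO. Rfx5, which binds the X box, had 1.90 and 2.10 RPKM in WT and 2.50 and 2.19 in KO. For Rfx5 both KO libraries were above both WT libraries (limma adjusted p = 0.67), and for Nfya both were below (0.65). Of the rest, Nfyc ranged from 10.6 to 13.04 RPKM, Creb1, which binds X2 boxes, from 4.62 to 5.79 and Rfxap from 3.67 to 4.38. Nfyb, a further Y box subunit, had 3.70 and 2.87 RPKM in WT and 2.50 and 3.50 in KO. Creb1 and Nfyb had WT replicate 1 and KO replicate 2 both above the other libraries. That is 2 of the 7, against 16.5% of all tested genes, and nothing is read from so small a count.

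On the class I side, Nlrc5, the transactivator of class I genes, had 0.740 and 0.424 RPKM in WT and 0.255 and 0.673 in KO (87, 57, 34 and 113 reads). It too was high in WT replicate 1 and KO replicate 2, and it did not pass the filter on low values. Among 9 tested heavy chains outside the members, 7 were higher and 2 lower on average in KO, none past the test (median 0.06, smallest limma adjusted p = 0.46). H2-T23, which presents leader peptides of other class I chains, had 60.7 and 65.8 RPKM in WT and 56.2 and 65.1 in KO. H2-T22 had 15.3 and 12.4 in WT and 14.7 and 15.9 in KO. Mr1, which presents vitamin metabolites, had 11.2 and 11.7 in WT and 13.1 in each KO library (13.08 and 13.10). Fcgrt, the neonatal Fc receptor heavy chain, which also pairs with the B2m product, had 54.7 and 53.5 in WT and 68.9 and 47.5 in KO. Cd1d1, which presents lipids, ranged from 10.98 to 15.2 RPKM, and H2-M3, which presents formylated peptides, from 4.26 to 5.93.

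The genes of peptide loading varied little between libraries. Of the 6 4 were higher and 2 lower on average in KO, with a median of 0.04 and none past the test. Tapbp, the tapasin that bridges the heavy chain to the transporter, had 54.8 and 53.8 RPKM in WT and 60.1 and 55.1 in KO. Among chaperones, Calr ranged from 322 to 350.1 RPKM Pdia3 from 273 to 327 and Canx from 115 to 128. Erap1, which trims peptides in the endoplasmic reticulum, had 11.5 and 10.4 in WT and 12.6 and 12.1 in KO, with both KO libraries above both WT libraries (limma adjusted p = 0.54). In the immunoproteasome list 4 of 5 genes were tested, 1 higher and 3 lower on average in KO, with 0 passed. Psmb9, a catalytic subunit that interferon induces, ranged from 1.20 to 1.50 RPKM, and the activator gene Psme1 from 38.5 to 43.3. Of the 9 tested regulators of class I and interferon signalling, 6 were higher and 3 lower on average in KO, and 0 passed at an FDR of 0.05. Ifngr2, a chain of the interferon-gamma receptor, had 24.8 and 24.3 RPKM in WT and 20.5 and 21.5 in KO (limma adjusted p = 0.40), the only gene of the list at an unadjusted p under 0.05. Jak1, a kinase of the same receptor, had 59.8 and 60.02 in WT and 67.2 and 64.4 in KO (0.57).

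Outside the members, the genes whose values over the 4 libraries lay nearest to the mean class II profile were Gm5417, Gm26387, Gm11963, Gm14539 and Gm26393. Likeness was the Euclidean distance between log2(RPKM + 1) values centred on their own mean. It ran from 0.0729 for Gm5417 to 0.266 for Gm26393, beside a length of 0.935 for the class II profile itself. Gm5417 had 2.07 and 0.659 RPKM in WT and 0.830 and 2.64 in KO. All of these genes but Gm14539 passed the filter on low values only through WT replicate 1 and KO replicate 2, which fixed their order. They stood at or below 2.64 RPKM. Nearest to the class I profile, which has a length of 0.248, were Mob1b, Gmnn, Zranb2, Gk and Tmem230, at distances of 0.0254 to 0.0291. Mob1b had 7.46 and 6.38 RPKM in WT and 6.37 and 8.14 in KO. With 4 libraries, many of the 12391 genes come near to any profile.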

How the data were processed

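Each library has its own table of 1 value per Ensembl ID. The authors' unit is not named in the headers, and the deposited values were read as RPKM from the values themselves: 90.4% to 90.7% of those above 0 become whole reads (within 0.01) at the exonic gene lengths of GENCODE M21. The genome build, per the submitters' processing notes, was mm9. Aligner, counter and annotation were not given in the sources used here. Coordinates are GENCODE M21 positions (GRCm38), and 27306 IDs had a symbol there while 51 had none. Where the GENCODE length gave no whole reads, the smallest length that did so in every library was used.

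Genotypes were compared on log2(RPKM + 1) with limma 3.58.1 (R 4.3.3), with genotype as the only term, a mean trend, 2-sided tests and Benjamini-Hochberg adjustment over 12391 genes. Residual degrees of freedom were 2 and prior ones 3.08. The procedure was run on simulated data with errors drawn independently for each gene. Differences between libraries that many genes share were not part of that check. Ratios of reads carry 95% exact binomial intervals. Other steps ran in Python 3.11.15 with NumPy 2.4.6, SciPy 1.17.1, pandas 2.3.3 and Matplotlib 3.10.9.

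Members and lists were chosen with earlier results of these data known. Named beside the members were the transactivators, partner chains, genes from up to 4 of the highest level and 2 of the smallest p per list, and the 5 nearest profiles per class. Nfyb, Cyp17a1, Aif1, Cd163 and defining markers of dendritic, B, T and Sertoli cells outside that rule were chosen after their values were seen. Replicate numbers follow deposition order. Alternatives were voom on recovered reads of 12388 genes, quantile and trimmed-mean scaling, a pseudocount of 0.1, other filters (none, or 5 RPKM), no trend, a replicate block, and each library left out.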

Additional observations from a re-analysis of the deposited data

How the results depend on the processing

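No member passed an FDR of 0.05 under any of the alternatives run. Under the alternatives that kept all libraries, each member kept the sign of its difference, from 0.32 to 0.52 for Cd74 and from 0.19 to 0.70 for H2-Aa. The class II median then lay between 0.19 with quantile normalization and 0.52 with voom, and the class I median between 0.06 and 0.07. At a filter of 5 RPKM 5 members were tested, so no class value was had there.

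Leaving out 1 library in turn gave class II medians from -0.29 to 0.82, class I medians from -0.13 to 0.19, and class II minus class I from -0.14 to 0.55. The ranges for members whose sign turned were -0.29 to 0.84 for H2-Aa, -0.35 to 0.62 for H2-Ab1, -0.35 to 0.48 for H2-DMa, -0.55 to 1.20 for Cd74, -0.13 to 0.19 for H2-K1, -0.37 to 0.012 for H2-D1, -0.21 to 0.35 for B2m and -0.015 to 0.13 for Tap1. H2-Eb1 and Tap2 kept their sign. Over all genes these fits called 0 to 38 higher and 0 to 36 lower, where the single library of a genotype is assumed to vary like the pair of the other. The highest counts came without KO replicate 1, and without KO replicate 2 the counts were 1 and 3.

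With a replicate block from the suffix of the sample labels the class II median stayed at 0.27 and no gene was called. Over all tested genes, the deviations of same-suffix libraries from their genotype means had a correlation of -0.0959. With 2 libraries per genotype, this value cannot tell whether same-suffix libraries shared more than a label. Reads of 10 to 249 per library limit the class II values.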
